A study of Mus musculus with 3 samples.

Results

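The amino acid and unfolded protein stress genes are 39 genes of known function, taken by name in 2 arms. They were chosen with earlier results of these data known, so counts of members describe the list and do not test it. The ATF4 amino acid arm has 21 genes, and the ER chaperone arm has 18. Of the 39, 38 had a probe and were tested, among 18488 genes and transcripts in all. No probe on the array matched Dnajb11, a co-chaperone of the ER, so 17 genes of the ER chaperone arm were measured. The brightest probe of each measured member was well above background in both channels on 3 of 3 arrays, so none of the 38 entered through 1 channel alone.

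The cells were primary mouse embryonic fibroblasts taken at E12.5, left untreated and cultured in DMEM with 10% serum. On each of 3 Agilent 2-colour arrays, RNA of a sample labelled SA1-null was in the Cy3 channel and RNA of a sample labelled wild type was in the Cy5 channel. SA1 belongs to cohesin, a protein ring that links sister chromatids and forms loops of chromatin. The labels give the 3 arrays as biological replicates and do not say which part of the gene was disrupted, nor how many embryos gave each culture. The dyes were never exchanged, so an effect of the dye and an effect of the genotype cannot be told apart.

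Both arms answer stress that a cell meets when its amino acid supply or its protein folding falls short. In the integrated stress response, kinases that sense amino acid lack, unfolded protein or other stress phosphorylate the translation factor eIF2, which slows most protein synthesis but favours translation of Atf4 mRNA. ATF4 then switches on genes that make and import amino acids, together with genes that restrain the response. The unfolded protein response shares the ATF4 branch through the kinase PERK. It also has branches through ATF6 and through XBP1 that raise chaperones and degradation factors of the endoplasmic reticulum (ER).

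Stag1, which encodes SA1, went against the labels. Its normalised intensity was 1445, 2423 and 2399 in the channel labelled SA1-null on replicates 1, 2 and 3, against 143, 181 and 217 in the channel labelled wild type. The channel labelled SA1-null was the higher on 3 of 3 arrays and the channels did not overlap (11.4-fold, log2 ratio 3.52 ± 0.21, SD, n = 3, limma adjusted p = 0.0273). These values are of its brightest probe. Another probe had 3.53 ± 0.35, and a dimmer one 2.17 ± 0.53, with Cy5 well above background on 2 of 3 arrays. For the dimmest, Cy5 was well above background on no array, and no fold is given. Probes outside a disrupted part would check nothing about it. The ratios below are given as log2 of Cy3, labelled SA1-null, over Cy5, labelled wild type. If the labels of the channels were exchanged, all their signs would turn. The log2 values that the authors deposited have Cy5 on top and so carry the opposite sign, although the sample titles read KO vs WT. Turned to Cy3 over Cy5, the deposited values put Stag1 at 3.56. Which channel held which genotype was not tested, so every direction below rests on the channel labels. Between 61.3% and 66.6% of probes were well above background in Cy3, and between 62.6% and 67.7% in Cy5. Replicate 1 was on a slide of its own and replicates 2 and 3 shared another. The Y-linked genes Uty, Ddx3y, Eif2s3y and Kdm5d were well above background on replicate 1 alone, in both channels, and Usp9y on no array. Before normalization, Ddx3y had spot signals of 1633, 32 and 29 in Cy3 and 6320, 57 and 52.5 in Cy5. After it, the log2 ratio of Ddx3y on replicate 1 was -0.24. Xist was well above background on replicate 3 in Cy3 and on replicates 2 and 3 in Cy5. Across genes, which are not independent replicates, the arrays' log2 ratios correlated at 0.272 to 0.471.

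The ATF4 amino acid arm lay above 0 as a group, whereas the ER chaperone arm lay around 0. None of the members passed the test at a limma adjusted p of 0.05 (0 of 38), where 0.314% of all genes did and 0.0108% did with a higher level in the channel labelled SA1-null. The mean log2 ratio was above 0 for 20 of 21 genes of the ATF4 arm, with a median of 0.65, and for 9 of 17 genes of the ER arm, with a median of 0.02. Over all genes tested, 45.6% were above 0 and the median was -0.02. In the ATF4 arm, 9 of 21 genes, or 42.9%, had an unadjusted p under 0.05 and higher values in the channel labelled SA1-null, against 2.33% of all genes. In the ER arm this held for 1 of 17 genes, or 5.88%. No gene of either arm (0 of 38) was lower at an unadjusted p under 0.05, against 5.15% of all genes. With 1 replicate left out in turn, the count in the ATF4 arm was 5 to 10, lowest without replicate 3. With the slide as a term in the fit, which takes the spread from the 2 arrays of 1 slide alone, 10 of 38 members passed at a limma adjusted p of 0.05, where 9.58% of all genes did.

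The same split showed on each array. The median of the ATF4 arm was 1.10, 0.36 and 0.56 on replicates 1, 2 and 3, while the ER arm had medians of -0.03, -0.08 and 0.18 there. The ATF4 median exceeded the ER median by 1.13, 0.43 and 0.37, a mean difference of 0.65 ± 0.42 (SD, n = 3), and it was above 0 on 3 of 3 arrays. The smallest two-sided p of an exact sign-flip test over 3 arrays is 0.25, and this difference is given without a test. Both arms hold brightly measured genes. The 6075 genes of intensity like that of the ATF4 arm had a median log2 ratio of 0.00, and the 3098 genes of intensity like that of the ER arm had 0.01.

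**Figure D1:**
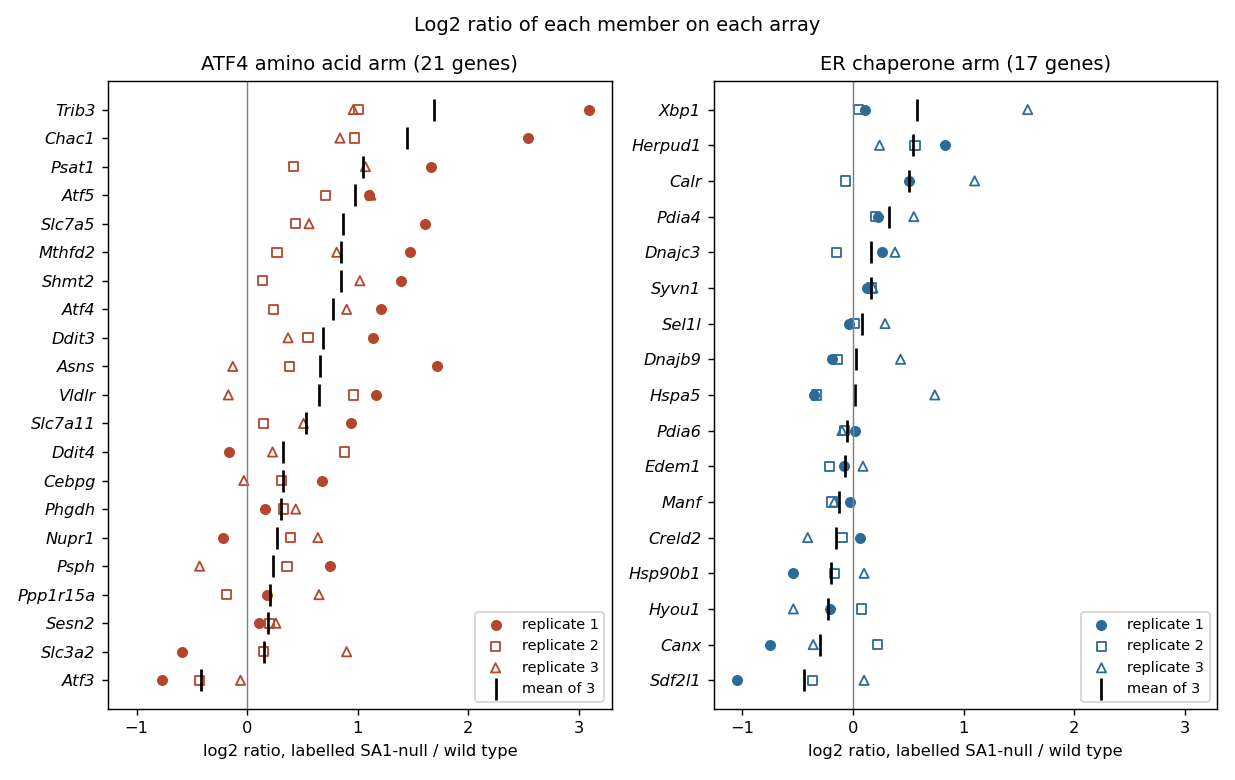
Each row is 1 measured member and each point its log2 ratio on 1 array, labelled SA1-null over labelled wild type, with the mean over the 3 arrays marked; members are grouped by arm. In the ATF4 arm 20 of 21 means lie right of 0, against 9 of 17 in the ER chaperone arm.

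Replicate 1 carried much of the size of the ATF4 arm. Of its 21 genes, 13, or 61.9%, were highest on replicate 1, against 34.3% of all genes. On the slide of replicates 2 and 3 alone, 19 of 21 genes had a mean above 0 and the median over the arm was 0.50. The ratio was above 0 on all 3 arrays for 12 of 21 genes of the ATF4 arm and 4 of 17 of the ER arm, against 13.3% of all genes. It was below 0 on all 3 arrays for 1 gene in each arm, Atf3 and Manf, against 19.1% of all genes. Intensities of the channels did not overlap for 8 genes of the ATF4 arm, or 38.1%, all with the higher values in the channel labelled SA1-null, against 2.89% of all genes. None of the ER arm (0 of 17) had channels apart in that direction, and none of the 38 had them apart in the other, where 6.05% of all genes did.

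**Figure D2:**
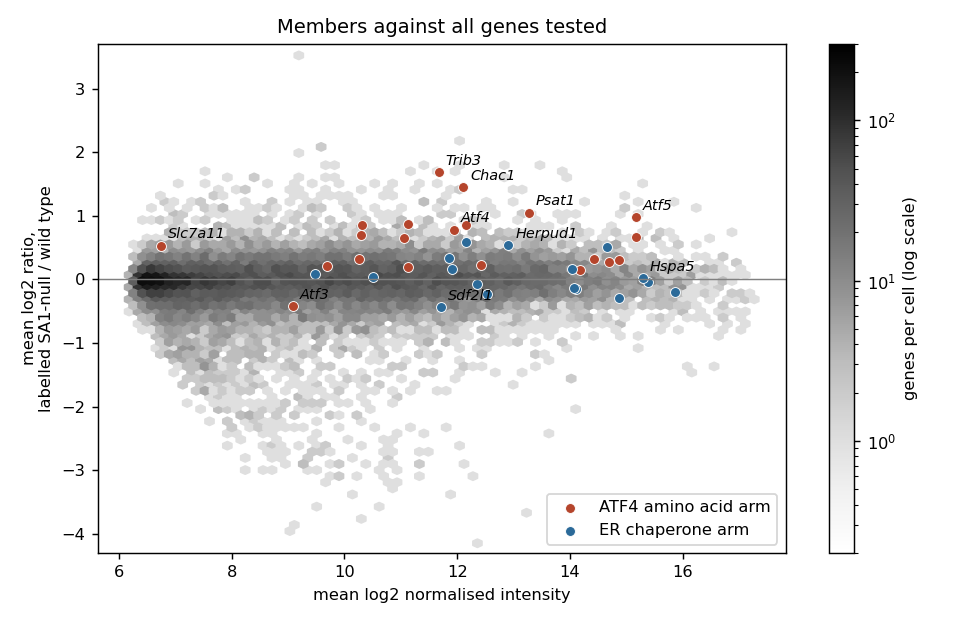
The mean log2 ratio (y axis, labelled SA1-null over labelled wild type) is plotted against the mean log2 normalised intensity (x axis) for the members, over the density of all 18488 genes and transcripts (grey, log scale). ATF4 arm genes lie mostly above 0 across the range of intensity, from the dim Slc7a11 to the bright Atf5, and ER arm genes lie on both sides of 0.

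Promoters of the 2 arms carry different known elements, and they are shown so that the values can be read beside them. The 250 bases before the listed start of 36 members were taken from the RefSeq promoter table (GRCm38.p6), and Slc7a5, Manf and Hyou1 had no entry. For Slc7a11 and Vldlr, the listed start of the matched promoter is not the annotated edge of the gene. The 20 ATF4 arm genes had 23 promoters, so some had more than 1, and the 16 ER arm genes had 16. The C/EBP-ATF response element, to which ATF4 binds with a C/EBP partner, was searched as TGATGNAA. The ER stress element (ERSE), bound by ATF6 with the factor NF-Y, was searched as CCAAT and CCACG with any 9 bases between them. ERSE-II was searched as ATTGG and CCACG with any 1 base between them, and the XBP1 element as TGACGTGG, all on both strands. In the following 6 promoters, written 5′ to 3′ on the gene's strand, capitals mark the matches. The C/EBP-ATF element stands in Chac1 (chr2:119350992-119351241, plus strand), in Asns (chr6:7693210-7693459, minus strand) and at 2 places in Slc7a11 (chr3:50443614-50443863, minus strand). Herpud1 (chr8:94386179-94386428, plus strand) has this element and then ERSE-II. Hspa5 (chr2:34771840-34772089, plus strand) has 1 ERSE and Hsp90b1 (chr10:86705445-86705694, minus strand) has 2.
Chac1: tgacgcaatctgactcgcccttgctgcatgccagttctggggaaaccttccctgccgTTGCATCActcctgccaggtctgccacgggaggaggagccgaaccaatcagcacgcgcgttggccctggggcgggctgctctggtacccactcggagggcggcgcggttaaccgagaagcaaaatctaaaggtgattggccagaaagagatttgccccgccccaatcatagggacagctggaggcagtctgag
Asns: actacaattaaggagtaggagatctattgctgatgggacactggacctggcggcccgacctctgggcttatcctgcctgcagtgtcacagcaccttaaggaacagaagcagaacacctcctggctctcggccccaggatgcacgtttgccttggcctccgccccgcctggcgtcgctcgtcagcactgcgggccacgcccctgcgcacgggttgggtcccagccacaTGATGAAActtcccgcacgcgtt
Slc7a11: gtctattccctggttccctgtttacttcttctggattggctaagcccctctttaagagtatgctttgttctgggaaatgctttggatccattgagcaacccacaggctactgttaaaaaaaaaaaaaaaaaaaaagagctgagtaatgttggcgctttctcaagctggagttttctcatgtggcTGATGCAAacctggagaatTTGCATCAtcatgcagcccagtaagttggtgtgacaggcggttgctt
Herpud1: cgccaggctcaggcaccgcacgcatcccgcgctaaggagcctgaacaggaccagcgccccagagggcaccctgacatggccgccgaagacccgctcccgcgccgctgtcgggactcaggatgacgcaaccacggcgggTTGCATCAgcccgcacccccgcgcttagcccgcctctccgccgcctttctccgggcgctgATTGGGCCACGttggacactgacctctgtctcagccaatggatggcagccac
Hspa5: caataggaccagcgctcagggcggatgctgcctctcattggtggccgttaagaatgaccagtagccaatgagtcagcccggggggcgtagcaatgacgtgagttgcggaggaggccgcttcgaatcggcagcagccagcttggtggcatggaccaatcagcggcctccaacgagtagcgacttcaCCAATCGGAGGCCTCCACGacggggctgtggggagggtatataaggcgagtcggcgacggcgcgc
Hsp90b1: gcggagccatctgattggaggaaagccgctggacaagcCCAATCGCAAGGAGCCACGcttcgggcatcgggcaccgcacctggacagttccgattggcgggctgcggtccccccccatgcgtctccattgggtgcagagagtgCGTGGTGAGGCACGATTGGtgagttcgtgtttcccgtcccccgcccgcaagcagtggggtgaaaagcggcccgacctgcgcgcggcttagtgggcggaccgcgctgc

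The C/EBP-ATF element was in the window of 6 of 20 genes of the ATF4 arm, namely Asns, Atf3, Chac1, Nupr1, Slc7a11 and Vldlr. It was in 1 of 16 genes of the ER arm, Herpud1, and in 3.45% of all 32851 promoters of that length. ERSE was in 8 of 16 genes of the ER arm (Calr, Canx, Creld2, Dnajc3, Hsp90b1, Hspa5, Pdia6 and Syvn1), in 0 of 20 of the ATF4 arm and in 0.113% of all promoters. ERSE-II was in 0.0304% of all promoters and, among the members, in Herpud1. The XBP1 element was in 0.563% of all promoters and in no member. Ratios of members with and without an element overlapped. ATF4 arm genes with the C/EBP-ATF element had mean log2 ratios of -0.42 to 1.45, with a median of 0.59, and the 14 without it had 0.15 to 1.69, with a median of 0.51. ER arm genes with ERSE had -0.30 to 0.51, with a median of -0.02, and the 7 measured genes without it had -0.44 to 0.58, with a median of 0.08.

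Among the transcription factors of the ATF4 arm, 5 of 6 had a mean above 0, with a median of 0.50. Atf4, the factor that gives the arm its name, had normalised intensities of 5493, 4374 and 5659 in the channel labelled SA1-null on replicates 1, 2 and 3, against 2373, 3703 and 3034 in the channel labelled wild type. Each value in the channel labelled SA1-null was above each in the other channel, by the least on replicate 2 (log2 ratios 1.21, 0.24 and 0.90, mean 0.78 ± 0.50, SD, n = 3, 1.72-fold, limma adjusted p = 0.551). Atf5, a related factor that is also favoured in translation under stress, read 78747, 39739 and 43916 in the channel labelled SA1-null and 36619, 24369 and 20162 in the channel labelled wild type. Its SD was the smallest among the 9 genes with an unadjusted p under 0.05, and the channels did not overlap (1.10, 0.71 and 1.12, mean 0.98 ± 0.24, SD, n = 3, 1.97-fold, limma adjusted p = 0.207). That adjusted p was the lowest of any member.

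Ddit3 encodes CHOP, a factor that promotes cell death under prolonged stress. It read 2859, 1494 and 956 in the channel labelled SA1-null, against 1297, 1022 and 739 in the channel labelled wild type. The channel labelled SA1-null was higher within every array, but the channels overlapped across arrays because both were lowest on replicate 3 (1.14, 0.55 and 0.37, mean 0.69 ± 0.40, SD, n = 3, 1.61-fold, limma adjusted p = 0.559). Atf3, a repressor that many stresses induce, was the exception of the arm, with ratios of -0.77, -0.43 and -0.06 (mean -0.42 ± 0.35, SD, n = 3, limma adjusted p = 0.703). Cebpg, a C/EBP partner of ATF4, had a mean of 0.32 ± 0.35, and its 3 probes lay between 0.00 and 0.32. Nupr1, a small stress-induced chromatin protein, had 0.27 ± 0.45 and was below 0 on replicate 1 (-0.22).

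The feedback regulators, with Chac1 counted among them, all had means above 0 (5 of 5), with a median of 0.32. The highest mean ratios of all 38 genes were those of Trib3 and Chac1. Trib3, a pseudokinase that restrains ATF4, read 13521, 4710 and 3119 in the channel labelled SA1-null, against 1584, 2338 and 1605 in the channel labelled wild type. The channels did not overlap, and replicate 1 stood far above the other arrays (3.09, 1.01 and 0.96, mean 1.69 ± 1.22, SD, n = 3, 3.22-fold, limma adjusted p = 0.534). Its second probe gave 1.41 ± 0.84. Chac1, an enzyme that breaks down glutathione, showed the same shape, with 12011, 6086 and 5269 in the channel labelled SA1-null and 2065, 3108 and 2939 in the channel labelled wild type. The channels were again apart, with the widest gap on replicate 1 (2.54, 0.97 and 0.84, mean 1.45 ± 0.95, SD, n = 3, 2.73-fold, limma adjusted p = 0.471).

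The other feedback genes were close to 0 or uneven. Sesn2, an inhibitor of mTORC1 signalling, had a mean of 0.19 ± 0.08 (SD, n = 3), and its intensities were 5186, 1607 and 1635 in the channel labelled SA1-null against 4813, 1397 and 1362 in the channel labelled wild type. Both channels were about equally high on replicate 1, so the array mattered more than the channel for this gene. Ddit4, another mTORC1 inhibitor, had ratios of -0.16, 0.88 and 0.23 (mean 0.32 ± 0.53). Ppp1r15a, the phosphatase subunit that reverses eIF2 phosphorylation, had 0.18, -0.19 and 0.65 (mean 0.21 ± 0.42).

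**Figure D3:**
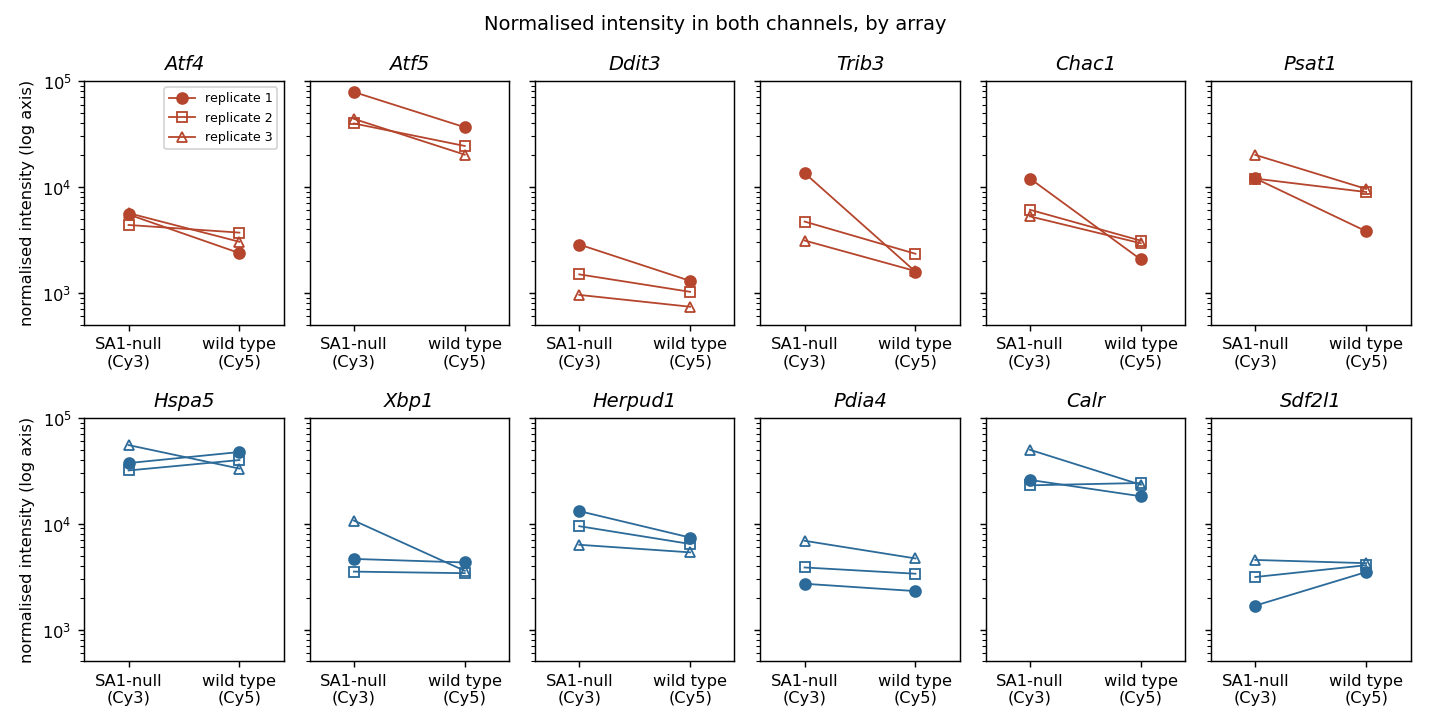
Normalised intensity (log scale) on each array is drawn for selected members, with the channel labelled SA1-null left of the channel labelled wild type and lines joining the 2 channels of 1 array. For Trib3, Chac1, Psat1, Atf5 and Atf4 the channels do not overlap, while for Hspa5, Xbp1 and Calr they do.

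The enzymes of serine, asparagine and folate metabolism had the highest median of the arm, 0.75, with 6 of 6 means above 0. Psat1, an aminotransferase of serine synthesis, read 12040, 11986 and 20057 in the channel labelled SA1-null, against 3814, 8951 and 9578 in the channel labelled wild type. The channels did not overlap, and the low value in the channel labelled wild type on replicate 1 made that gap the widest (1.66, 0.42 and 1.07, mean 1.05 ± 0.62, SD, n = 3, 2.07-fold, limma adjusted p = 0.463). Its neighbours in the pathway were nearer to 0. Phgdh, which takes the first step of serine synthesis, had 0.31 ± 0.14 and was above 0 on all 3 arrays at its brightest kept probe. A brighter probe, not kept because its spot on replicate 3 was flagged, read 0.03 and 0.11 on replicates 1 and 2. The other kept probe of Phgdh read -0.04, -0.11 and 0.79 (mean 0.21 ± 0.50). Psph, which takes the last step, had 0.75, 0.36 and -0.43 (mean 0.23 ± 0.60).

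The mitochondrial folate enzymes had the same order over the arrays, highest on replicate 1 and lowest on replicate 2. Mthfd2 had ratios of 1.47, 0.27 and 0.81 (mean 0.85 ± 0.60, SD, n = 3, limma adjusted p = 0.588), with 1653, 1554 and 1954 in the channel labelled SA1-null against 598, 1292 and 1118 in the channel labelled wild type. Shmt2, which feeds it from serine, had 1.39, 0.14 and 1.02 (mean 0.85 ± 0.64, limma adjusted p = 0.615). Channels were apart for Mthfd2 and overlapped for Shmt2. Asns, the asparagine synthetase, rested on replicate 1. It read 46288, 54261 and 39701 in the channel labelled SA1-null and 14091, 41632 and 43335 in the channel labelled wild type, so the channel labelled wild type was low on replicate 1 and the channels were close on the other arrays (1.72, 0.38 and -0.13, mean 0.66 ± 0.95, SD, n = 3, limma adjusted p = 0.713).

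Amino acid transporters had a median of 0.53, with 3 of 3 means above 0. Slc7a5, the light chain of a carrier of large neutral amino acids, had 3245, 2653 and 3243 in the channel labelled SA1-null, against 1059, 1954 and 2203 in the channel labelled wild type, with no overlap (mean 0.87 ± 0.65, SD, n = 3, limma adjusted p = 0.602). Slc7a11, the cystine importer, was dim, with 123, 116 and 147 in the channel labelled SA1-null and 64.2, 105 and 103 in the channel labelled wild type. These intensities include the offset of 50 that the background correction adds, which draws ratios of dim probes toward 0 (mean 0.53 ± 0.40, limma adjusted p = 0.664). Slc3a2, the heavy chain that both transporters pair with, did not keep 1 sign, with ratios of -0.59, 0.15 and 0.90 (mean 0.15 ± 0.74), and its second probe gave -0.17 ± 0.29. Vldlr, a lipoprotein receptor that ATF4 is known to induce, had 1.17, 0.96 and -0.17 (mean 0.65 ± 0.72).

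In the ER chaperone arm the chaperones of the HSP70 and HSP90 families and their helpers were on both sides of 0, with 3 of 6 above and a median of -0.09. Hspa5 encodes BiP, the main HSP70 chaperone of the ER and the usual readout of the unfolded protein response. It read 37319, 31775 and 55165 in the channel labelled SA1-null, against 47445, 39853 and 33099 in the channel labelled wild type. The channel labelled SA1-null was lower on replicates 1 and 2 and higher on replicate 3, so the channels overlapped and the mean was near 0 (-0.35, -0.33 and 0.74, mean 0.02 ± 0.62, SD, n = 3, limma adjusted p = 0.988). Sdf2l1, a helper of BiP, had 1682, 3133 and 4540 in the channel labelled SA1-null and 3491, 4050 and 4233 in the channel labelled wild type. Its ratios had the lowest mean of all members and differed between arrays (-1.05, -0.37 and 0.10, mean -0.44 ± 0.58, SD, n = 3, limma adjusted p = 0.713).

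The other members of this group were smaller in their differences. Hsp90b1, the HSP90 of the ER, had -0.20 ± 0.32 and a second probe at 0.03. Hyou1, a large HSP70 relative, had -0.23 ± 0.31. The J-domain co-chaperones Dnajc3 and Dnajb9 had 0.16 ± 0.28 and 0.03 ± 0.34 (SD, n = 3 each), and the probes of Dnajc3 lay between -0.10 and 0.16.

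Calr and Canx, the lectin chaperones that hold glycoproteins while they fold, went apart. Calr read 25876, 23001 and 49810 in the channel labelled SA1-null, against 18129, 24197 and 23296 in the channel labelled wild type. It was high in the channel labelled SA1-null on replicate 3 and the channels overlapped (mean 0.51 ± 0.58, SD, n = 3, limma adjusted p = 0.703), with a second probe at 0.56. Canx had 18530, 36288 and 29125 in the channel labelled SA1-null and 31267, 31087 and 37286 in the channel labelled wild type, also overlapping (mean -0.30 ± 0.49, SD, n = 3, limma adjusted p = 0.748). Its 3 probes disagreed in sign, at -0.30, -0.07 and 0.33. Of the disulfide isomerases, Pdia4 was higher in the channel labelled SA1-null within each array (0.23, 0.20 and 0.55, mean 0.33 ± 0.20, SD, n = 3, limma adjusted p = 0.703). Its intensities of 2706, 3856 and 6886 in the channel labelled SA1-null overlapped with 2306, 3365 and 4692 in the channel labelled wild type. Pdia6 had -0.05 ± 0.07.

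Herpud1, a membrane protein of ER-associated degradation, was the ER arm gene with the smallest p. It read 13134, 9459 and 6315 in the channel labelled SA1-null, against 7389, 6428 and 5354 in the channel labelled wild type. The channel labelled SA1-null was higher within each array, but its value on replicate 3 lay among those of the other channel (0.83, 0.56 and 0.24, mean 0.54 ± 0.30, SD, n = 3, 1.46-fold, limma adjusted p = 0.616). As shown above, its promoter window is the one among the 16 of the ER arm that holds the C/EBP-ATF element, and it holds ERSE-II too. Whether either element bears on its ratio was not tested. Syvn1, the ubiquitin ligase of this pathway, had even ratios of 0.13, 0.17 and 0.18 (mean 0.16 ± 0.03). Sel1l, its scaffold, had 0.08 ± 0.18 with a second probe at 0.57, and Edem1, a lectin that delivers misfolded glycoproteins, had -0.07 ± 0.15, with probes between -0.07 and 0.08.

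Xbp1, the factor of the IRE1 branch, had its difference on 1 array. It read 4642, 3523 and 10692 in the channel labelled SA1-null, against 4298, 3405 and 3584 in the channel labelled wild type. The channels were close on replicates 1 and 2 and apart on replicate 3 (0.11, 0.05 and 1.58, mean 0.58 ± 0.86, SD, n = 3, limma adjusted p = 0.716). The probe does not tell the spliced from the unspliced mRNA, which is the step that activates XBP1. The secreted proteins Manf and Creld2, which ER stress induces, had -0.13 ± 0.09 and -0.15 ± 0.24. Replicate 3 was the highest array for 11 of 17 genes of the ER arm and for 7 of 21 of the ATF4 arm, beside 6710 of all 18488 genes.

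Further genes of both pathways were read from wider lists, which were also chosen with earlier results known. Of 26 other ATF4 targets measured, 19 were above 0, 8 were higher and 0 lower at an unadjusted p under 0.05, and the median was 0.59, with 0.80, 0.22 and 0.39 on replicates 1, 2 and 3. Over all genes tested 45.6% were above 0, 2.33% were higher and 5.15% lower at that p. Pck2, the mitochondrial enzyme that makes phosphoenolpyruvate, had 1.22 ± 0.40 (SD, n = 3, limma adjusted p = 0.207), the alanine aminotransferase Gpt2 had 0.72 ± 0.23, and the neutral amino acid carrier Slc1a4 had 0.75 ± 0.31. Cytosolic aminoacyl-tRNA synthetases, many of which ATF4 is known to induce, were above 0 for 17 of 19, with 7 higher and 0 lower at that p and a median of 0.50. Tars, Iars and Sars, which load threonine, isoleucine and serine, had 0.68 ± 0.34, 0.65 ± 0.34 and 0.58 ± 0.29. Nars is in both lists. None of these genes passed at an adjusted p of 0.05 (0 of 26 and 0 of 19).

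Lists nearer to the ER arm had medians closer to 0. The 18 measured sensors and transducers of the unfolded protein response had a median of 0.09. Of these, 14 were above 0, beside 45.6% of all genes. At an unadjusted p under 0.05, 1 was higher and 0 lower, beside 2.33% and 5.15% of all genes. Creb3l1, a membrane-bound factor of secretory cells, had 0.78 ± 0.68, with 1.04, 0.01 and 1.30 on replicates 1, 2 and 3. Of 48 other ER folding and degradation genes, 32 were above 0, with a median of 0.11, and 2 were higher and 0 lower at that p. Txndc5 and P4hb, disulfide isomerases, had 0.68 ± 0.46 and 0.78 ± 0.70, and the prolyl isomerase Fkbp14 had 0.43 ± 0.21. Neighbouring stress programmes served for comparison. Heat shock genes, most of them cytosolic, answer unfolded protein outside the ER. They had a median of -0.07 with 7 of 16 above 0, and 0 were higher and 0 lower at an unadjusted p under 0.05. NRF2 targets, which answer oxidants, had a median of -0.18 with 5 of 13 above 0. Of these 13, 2 were higher and 0 lower at an unadjusted p under 0.05, beside 2.33% and 5.15% of all genes. These 2 were Nqo1, a quinone reductase, with 0.70 ± 0.18, and Me1 with 0.58 ± 0.38. Slc7a11 is in the NRF2 list too.

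**Figure D4:**
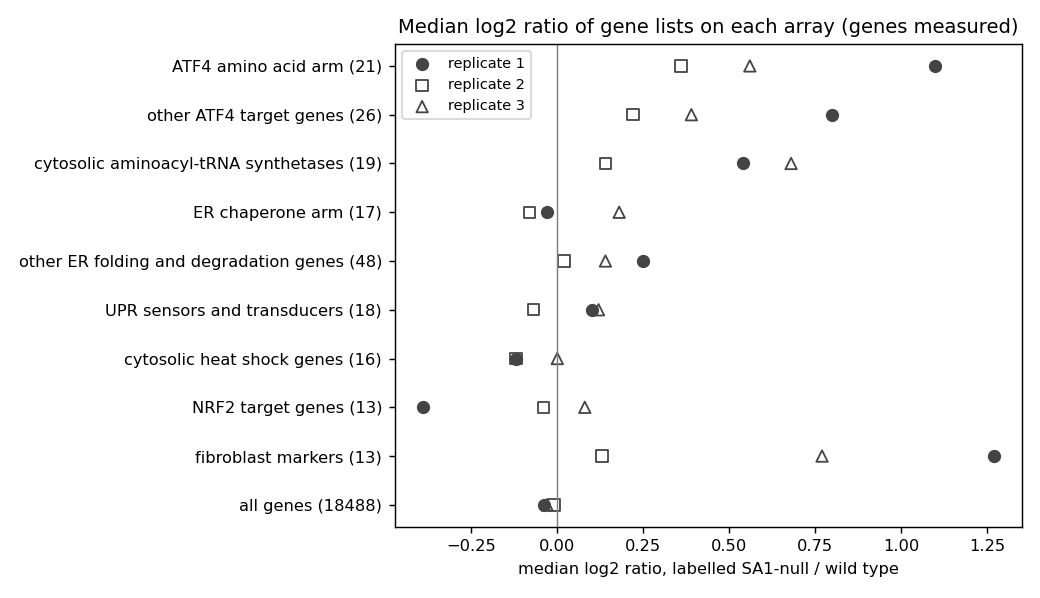
The median log2 ratio of each gene list (labelled SA1-null over labelled wild type) is shown on each of the 3 arrays. The ATF4 arm had 1.10, 0.36 and 0.56 and the fibroblast markers 1.27, 0.13 and 0.77, while the ER chaperone arm lay between -0.08 and 0.18.

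Markers of other cells differed between the channels alongside the ATF4 arm. Of 29 macrophage and blood cell markers measured, 29 were below 0 on all 3 arrays and 17 passed at a limma adjusted p of 0.05, with a median of -2.86. Lyz1, the lysozyme, was at -3.62 ± 0.23, and Tyrobp, a myeloid signalling adaptor, at -3.15 ± 0.15. Their summed normalised intensity was 48629, 13892 and 11159 in the channel labelled SA1-null, against 516891, 107461 and 97446 in the channel labelled wild type. In the channel labelled SA1-null 27 of 29 were well above background on every array, and in the channel labelled wild type 29 of 29 were. Fibroblast markers were above 0 for 12 of 13, with a median of 0.71 and with 1.27, 0.13 and 0.77 on replicates 1, 2 and 3. They summed to 841065, 399543 and 581517 in the channel labelled SA1-null and to 371939, 350722 and 305399 in the channel labelled wild type. On replicate 1, Col1a1, Col1a2 and Col3a1 alone read 185668, 207241 and 185496 in the channel labelled SA1-null. Pdgfra and Pdgfrb had 0.79 ± 0.11 and 0.85 ± 0.19, and Thy1 had -0.38 ± 1.05. Of the 13, 8 were above 0 on all 3 arrays and 0 were below 0 on all 3. Replicate 1 was the array with the highest median for the fibroblast markers and for the ATF4 arm, and replicate 2 had the lowest for both. That order was not particular to them. Other ER folding and degradation genes had 0.25, 0.02 and 0.14 on replicates 1, 2 and 3, and other ATF4 targets 0.80, 0.22 and 0.39. The synthetases had 0.54, 0.14 and 0.68. Over all genes, 2435, 420 and 2509 had a ratio above 0.5, so replicate 2 had the fewest. The 6 epithelial and endothelial markers that could be measured had a median of -0.43. The part of these markers, of the slide and of the Y-linked signals in the ATF4 arm result was not tested. In bulk RNA, fewer cells of a type and less RNA per cell cannot be told apart.

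Under other ways of processing the arrays the ATF4 arm stayed above the ER arm, but both could shift against 0. The ATF4 median was above the ER median on each array in all 18 alternatives, by 0.34 to 1.34, but many of these values are not separate. The filters on dim and flagged spots, the slide term, the array weights and the variance models kept the main differences of 1.13, 0.43 and 0.37. Leaving out a replicate kept them too, since the differences on single arrays do not depend on the fit. With median centring in place of loess the median of all genes was -0.30. The ATF4 arm then had a median of 0.28, with 11 of 21 genes above 0, and the ER arm had -0.53, with 2 of 17 above 0. Relative to all genes these were 0.57 and -0.23. With every probe counted on its own the ATF4 arm had a median of 0.32.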

How the data were processed

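Each of 3 arrays held the sample labelled SA1-null in Cy3 and the sample labelled wild type in Cy5, with 1 µg of RNA labelled, per the labels. Per the file headers, Agilent Feature Extraction made the spot and local background intensity values, in version 10.1.1.1 on replicate 1 and in version 10.7.3.1 on the other arrays. Its own log ratio, not used for any result, is per the file headers a log10 value with Cy5 on top. The deposited log2 values of the series were made with limma, per the submitters' processing notes, whose version is not given in the sources used here, nor is the normalization. Across probes they correlated with the Cy5 over Cy3 ratios computed here at 0.985, 0.982 and 0.997, and their medians were -0.02, -0.02 and -0.01. How they were centred is unknown.

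Median spot signals were used, since the files hold no mean signals, although mean signals had been planned. In limma 3.58.1 (R 4.3.3), normexp with an offset of 50 corrected the background, and loess then normalized each array by itself. Control spots and flagged spots (116, 125 and 207) had weight 0 and were then left out, and 0 spots were saturated. Of 41174 probes, 24019 had a value on all 3 arrays and were well above background on all 3 in Cy3 or in Cy5. The brightest of these kept probes stood for each of 18488 genes or transcripts. Symbols were matched through RefSeq accessions (GRCm38.p6), and 12034 of the genes tested had one. Intensities per channel were set on 1 scale over arrays with Aquantile after loess and still hold the offset. Mean ratios were tested against 0 with lmFit and eBayes and adjusted over all 18488 (Benjamini-Hochberg). Precision is limited by the 3 arrays.

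The members and all lists were chosen with earlier results of these data known. Values of both channels are given for the 6 members of each arm with the smallest p and for Atf4, Ddit3, Xbp1 and Hspa5, and for some others that were chosen after their values were seen. From each further list, up to 3 genes of the smallest p are named, and Nars because lists share it. Some further fibroblast markers are named that were chosen after their values were seen. Other probes of members are given where their means differ in sign or by over 0.5, and for some further genes. Alternatives covered the background correction, the normalization, the filter on dim probes, the choice of probe, the variance model, the slide, the threshold and each replicate left out.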

Additional observations from a re-analysis of the deposited data

How the results depend on the processing

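The test was already paired, since each ratio sets the 2 channels of 1 array against each other. The labels give 1 group of arrays, so no further pairing was possible. The difference between the arms ranged from 0.29 to 0.82 over 18 alternatives, the ATF4 median from 0.28 to 0.78 and the ER median from -0.53, with median centring, to 0.12. The count of genes called over all genes, 58, was the least stable value. It was 118 without background subtraction, 265 with an offset of 0, 325 with the processed signals, 34 with median centring and 160 with scale normalization. It was 92 when both channels had to be above background, 185 with array weights (0.484, 3.09 and 0.667 for replicates 1, 2 and 3) and 132 at an adjusted p of 0.1. In limma without a filter on dim probes it was 0, with 1982 genes at an unadjusted p under 0.05, and with an intensity trend 0, with 1107. Leaving out 1 replicate gave 0 to 284, with 284 without replicate 1 and 0 without replicate 2 or 3, where 1294 and 736 genes had an unadjusted p under 0.05 in limma. With the slide as a term 1772 genes and 10 members were called, among them Trib3 and Chac1, since the spread then came from the 2 arrays of 1 slide alone. With median centring the number of ATF4 arm genes higher at an unadjusted p under 0.05 was 2 in place of 9, and it was 5 to 10 with a replicate left out, lowest without replicate 3. For the ER arm it was 0 with an offset of 0, with the processed signals and with median centring, 2 without a filter, and 0 to 1 with a replicate left out, against 1. Signs turned with median centring for Pdia4 (-0.13), Calr (-0.13) and Hspa5 (-0.66). Hspa5 was also at -0.02 with scale normalization, -0.06 in the deposited values, -0.07 with the slide as a term, -0.16 with array weights, and between -0.34 and 0.21 with a replicate left out. Canx was at 0.02 with array weights. The cause of these changes was not tested. Stag1 stayed higher in the channel labelled SA1-null in every alternative (2.45 to 4.21), but lost its call with scale normalization, no filter, an intensity trend, or without replicate 2 or 3. The slide was taken as a fixed term only, and no fit with the slide as a random block is given. No member was near background apart from Slc7a11, whose ratio the offset of 50 limits.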
